A study of Gallus gallus with 2 samples.

Results

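The crystallins are the proteins that fill the vertebrate lens, and 9 crystallin genes were followed here in the back skin of chickens. The list held 6 beta crystallin genes, *CRYBB3*, *CRYBB2*, *CRYBB1*, *CRYBA1*, *CRYBA2* and *CRYBA4*, the gamma crystallin gene *CRYGS*, and the 2 alpha crystallin genes *CRYAA* and *CRYAB*. Members were matched by exact gene name among 22853 loci, and 8 of the 9 had a row of their own. The list was chosen from measured values, because the high *CRYBB3* value in black skin was already known when it was drawn up. The difference of *CRYBB3* is therefore given as a description. Where several rows carried one symbol, the row with the highest mean expression was used.

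Lueyang chickens with black skin (BS) were compared with Lueyang chickens with white skin (WS), to ask which genes differ in expression with skin color. All birds were females of 16 weeks, and skin was taken from the left back as 8 mm pieces. Each group was represented by 1 RNA-Seq library, pooled from 3 birds out of the 5 sampled per color. With 1 library per color there was no replicate, no test was possible and no value below has an error across birds. Expression is given as FPKM, which scales fragments to transcript length and library size, so that levels of different genes can be compared per length. Fold changes are BS over WS on the log2 scale after 1 FPKM was added to each value, which understates differences near 0. The paper gives total and aligned reads per library. The files give no read counts per locus, so the number of reads behind a single value is not listed. Of 15 keratinocyte markers checked against the skin label, 13 were above 1 FPKM, such as the basal keratin *KRT14* at 374 (BS) and 543 FPKM (WS). The other 2, *KRT5* and *KRT75*, lie on a sequence where every locus is listed at 0.

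Alpha crystallins belong to the small heat shock proteins, chaperones that hold damaged proteins in solution. Beta and gamma crystallins form a separate superfamily, built from a repeated fold called the Greek key, and give the lens its high refractive index. Both kinds are best known from lens fiber cells, whereas alpha B crystallin is also abundant in heart and skeletal muscle. Birds recruited a metabolic enzyme, argininosuccinate lyase, as a further lens protein called delta crystallin.

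*CRYBB3* was the only crystallin gene of the list with a large difference. It stood at 118 (BS) and 1.85 FPKM (WS), a ratio of 63.8 and a log2 fold change of 5.38. It ranked 933 from the top among all loci in BS and 12059 in WS. Among the loci above 0 in that library, it lay at percentile 94.9 in BS and 33.1 in WS. Of 14782 loci above 0 in both libraries and with at least 1 FPKM in the higher one, a single locus had a larger log2 fold change, *SRRD* (7.09). In bulk skin, more cells that express a gene and more RNA per cell cannot be told apart.

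In the deposited table *CRYBB3* is locus XLOC_006182 on chromosome 15 from 7210747 to 7216384. No other locus overlapped it. The submitters' processing notes name the chicken build galGal4 and the methods name another reference file, so coordinates are given as deposited. *CRYBB2*, a beta crystallin gene of closely related sequence, had no row under that name. In the RefSeq annotation of the later build GRCg7b, *CRYBB2* comes directly after *CRYBB3* and is followed by *GRK3*, the current name of *ADRBK2*. In the deposited table the next locus after *CRYBB3* was *ADRBK2*. Whether reads of *CRYBB2* were counted in the *CRYBB3* locus was not tested.

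**Figure D1:**
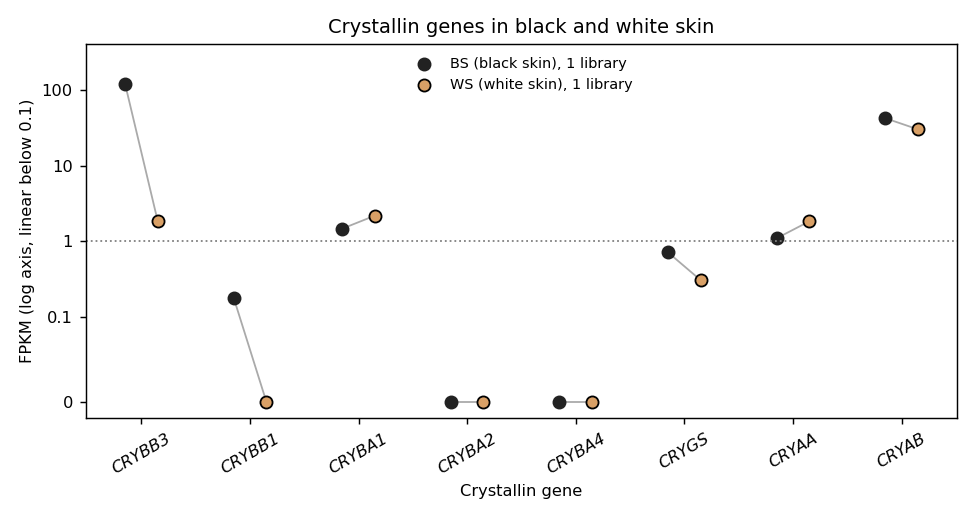
FPKM of the 8 crystallin genes with a row, in BS (black points) and WS (tan points), 1 library each, on a log axis that is linear below 0.1 FPKM, with a dotted line at 1 FPKM. *CRYBB3* is far apart between the libraries, at 118 FPKM in BS versus 1.85 FPKM in WS, *CRYAB* is high in both, and *CRYBA2* and *CRYBA4* are at 0 in both.

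The other beta crystallin genes were low or listed at 0 in both libraries. *CRYBA1*, which encodes the beta A3 and A1 chains from one transcript, was at 1.47 (BS) and 2.18 FPKM (WS), with a log2 fold change of -0.36. *CRYBB1*, a basic beta crystallin, was at 0.179 FPKM (BS) and 0 as listed (WS), so no fold is given. *CRYBA2* and *CRYBA4*, both acidic beta crystallins, were listed at 0 in BS and in WS. The authors' table marks *CRYBB1*, *CRYBA2* and *CRYBA4* as not tested. Their loci lie on chromosomes 15 and 7, where other loci were above 0. In WS *CRYBA1* was higher than *CRYBB3*, and in BS it was the next beta crystallin gene below it.

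*CRYGS*, the gamma crystallin of the adult lens, stood at 0.715 (BS) and 0.308 FPKM (WS). The plain ratio was 2.32, but the log2 fold change with the pseudocount was 0.39. Its deposited span of 146201 bp is shared with *SOX14*, a transcription factor gene at 0.827 FPKM (BS) and 0 as listed (WS).

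*CRYAB*, encoding alpha B crystallin, was the crystallin gene with the highest value in WS. It stood at 42.05 (BS) and 30.02 FPKM (WS), a ratio of 1.40 and a log2 fold change of 0.47. It was at percentile 86.4 of the loci above 0 in BS and 80.5 in WS. *CRYAA*, encoding the alpha A chain that is mostly confined to the lens, was far lower, with 1.10 (BS) and 1.84 FPKM (WS), with a log2 fold change of -0.43. The name *CRYAA* and one span on chromosome 1 are carried by 3 loci. The other 2 were at 0.876 and 0.0772 FPKM in BS, against 1.004 and 0.0911 FPKM in WS. Summed over these loci, *CRYAA* was at 2.05 (BS) and 2.93 FPKM (WS). Each of the 3 was lower in BS by a small margin.

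The order of the members differed between the libraries at the top. In BS it was *CRYBB3*, *CRYAB*, *CRYBA1*, *CRYAA*, *CRYGS* and *CRYBB1*. In WS it was *CRYAB*, *CRYBA1*, *CRYBB3*, *CRYAA* and *CRYGS*. The neighbors *CRYBB3* (1.85 FPKM) and *CRYAA* (1.84 FPKM) were almost level in WS, and with no replicate the spread between neighbors is unknown. With its loci summed, *CRYAA* moved to place 3 in BS and place 2 in WS, instead of place 4 in both. The FPKM of all 8 genes summed to 164 in BS and 36.2 in WS. *CRYBB3* made up 72.2% of that sum in BS and 5.12% in WS, and *CRYAB* 25.7% in BS and 82.9% in WS. Without *CRYBB3* the sums were 45.5 (BS) and 34.3 FPKM (WS).

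Of the 8 genes with a row, 4 reached 1 FPKM in either library, *CRYBB3*, *CRYAB*, *CRYBA1* and *CRYAA*. The higher value of *CRYAA* was 1.84 FPKM (WS), and that of *CRYGS*, below this limit, was 0.715 FPKM (BS). Of these 4, *CRYBB3* alone (1 gene) exceeded 2-fold, upwards in BS, and the other 3 stayed below that margin. Over all 15020 loci that passed the same limit, the share at least 2-fold higher was 4.61%, and the share at least 2-fold lower was 5.69%. The median log2 fold change of the 4 genes was 0.05, against -0.06 over all loci, and without *CRYBB3* it was -0.36. The sign of this median turned with the pseudocount, to -0.027 at 0.1 FPKM. The difference was thus carried by a single gene, and the values that drew attention to the list are those of this same gene.

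**Figure D2:**
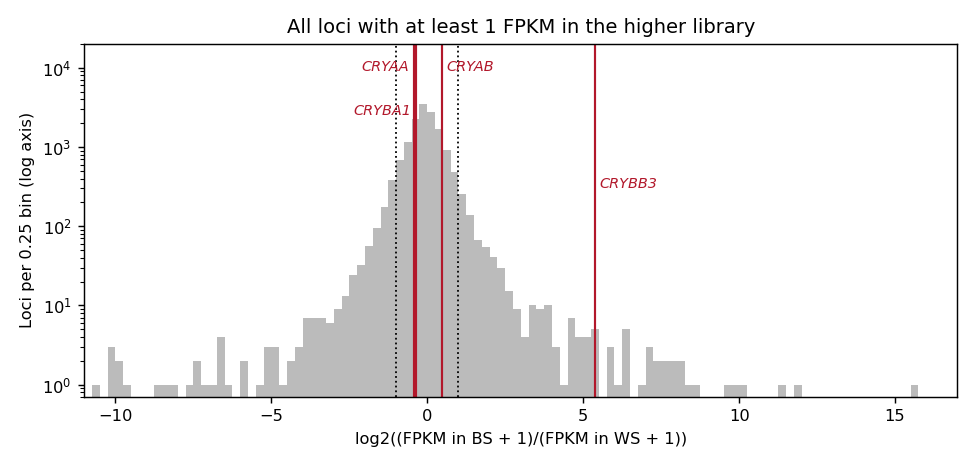
Histogram of log2((FPKM in BS + 1)/(FPKM in WS + 1)) over the 15020 loci that reached 1 FPKM in either library, on a log count axis, with dotted lines at a 2-fold difference and red lines at the 4 crystallin genes that passed. *CRYAA*, *CRYBA1* and *CRYAB* lie within 2-fold, and *CRYBB3* lies far to the right at 5.38. Loci farther to the right than *SRRD* are at 0 in one library.

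*CRYBB3* and *SRRD* lie near each other on chromosome 15. *SRRD*, named for a domain first described in a plant clock protein, stood at 3277 (BS) and 23.0 FPKM (WS). The deposited span of its locus, from 7380036 to 7400656, begins 164 kb after the end of *CRYBB3* and ends 504 bp before *CRYBB1*. The same span is carried by a locus that merges *TFIP11*, a splicing factor gene, and *TPST2*, a tyrosine sulfotransferase gene. Where *SRRD* itself lies within the span is therefore unknown, and in GRCg7b the gene directly before *CRYBB1* is *TPST2*. The merged locus was at 32.1 (BS) and 43.8 FPKM (WS). *CRYBB1* and *CRYBA4*, which lie 2135 bp apart just beyond this shared span, were at or near 0 in both libraries.

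The loci between *CRYBB3* and *SRRD* did not share their difference. *ADRBK2*, a kinase of G protein-coupled receptors, was at 13.3 (BS) and 10.9 FPKM (WS). A locus that merges *MYO18B*, an unconventional myosin gene of striated muscle, with 2 identifiers was at 37.5 (BS) and 19.3 FPKM (WS), with a log2 fold change of 0.92, and 1.05 with the totals apart from the 50 most abundant loci set equal. *ASPHD2* was at 5.48 (BS) and 9.70 FPKM (WS). *HPS4*, which takes part in the making of lysosome-related organelles such as melanosomes, was at 11.1 (BS) and 21.7 FPKM (WS), with a log2 fold change of -0.91. On the other side, the locus that ends 1144 bp before *CRYBB3* was at 30.6 (BS) and 35.0 FPKM (WS). Over the stretch from 200 kb before *CRYBB3* to 200 kb after *CRYBA4*, 14 of 20 loci passed the limit of 1 FPKM, and 2 of them, *CRYBB3* and *SRRD*, exceeded WS by 2-fold or more. Another 2 were at least 2-fold lower, namely *GGA.14119*, at 0.545 FPKM in BS versus 2.17 FPKM in WS, and an unnamed locus listed at 0 in BS and at 1.16 FPKM in WS. *GGA.14119* (log2 fold change -1.04) was short of 2-fold with the totals apart from the 50 most abundant loci set equal (-0.99) and at a pseudocount of 5 (-0.37). Of 14 genes that passed in a list of genes near alpha, beta or gamma crystallin genes, *SRRD* was the 1 gene 2-fold apart. Of all 368 loci on chromosome 15 that passed, 13 were at least 2-fold higher and 14 at least 2-fold lower in BS. As background for the counts in this paragraph, 4.61% of all 15020 loci that passed were at least 2-fold higher. The share at least 2-fold lower was 5.69%.

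**Figure D3:**
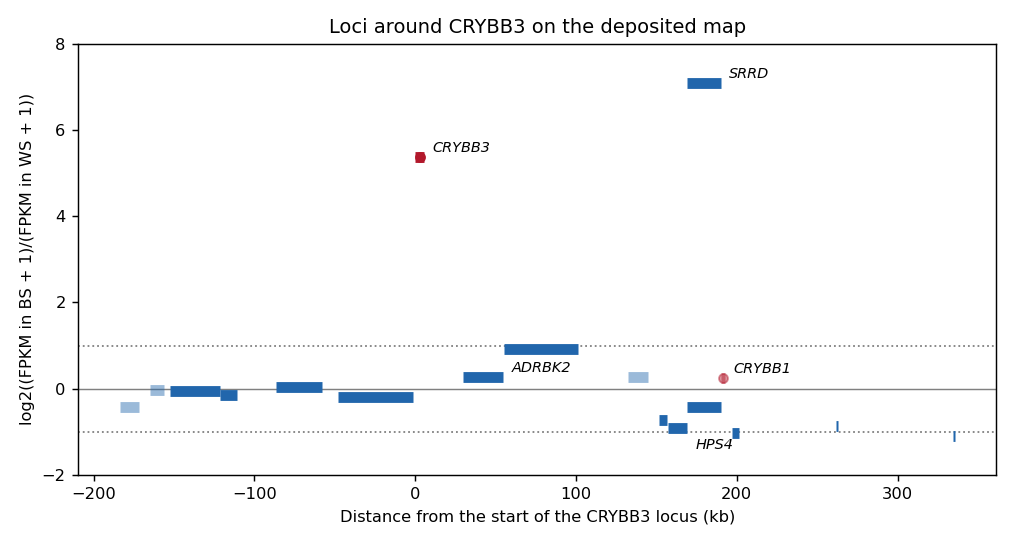
Log2 fold change (BS over WS) of the loci around *CRYBB3*, drawn as bars over the span of each locus, by distance in kb from the start of the *CRYBB3* locus, with crystallin genes in red and pale bars for loci under 1 FPKM. *CRYBB3* (5.38) and *SRRD* (7.09) stand apart, and the loci between them lie between -1 and 1. Loci at 0 in both libraries, such as *CRYBA4*, are not drawn.

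Around the other members, loci at least 2-fold apart were counted. Over all loci that passed the limit, 4.61% were at least 2-fold higher and 5.69% at least 2-fold lower in BS. The numbers of loci near each member are too small to set their counts apart from these shares. Within 50 kb of *CRYBA1* on chromosome 19, 5 loci passed the limit of 1 FPKM, and none was 2-fold apart. The same held for 14 loci that overlap or lie near *CRYAB*, for 4 near *CRYAA* and for 7 near *CRYGS*. Near *CRYBA2*, the 15 loci that passed all carry one deposited span, from 23911037 to 24228415. It begins 2142 bp after *CRYBA2*, so how far each gene itself lies from *CRYBA2* is unknown. Of these 15 loci, 2 were at least 2-fold lower in BS. These were the Wnt ligand genes *WNT6*, at 53.9 FPKM in BS versus 111 FPKM in WS with a log2 fold change of -1.03, and *WNT10A*, at 15.6 FPKM in BS versus 33.7 FPKM in WS with a log2 fold change of -1.07. Both were short of 2-fold at a pseudocount of 5 (-0.98 for *WNT6* and -0.91 for *WNT10A*) and under all 3 other scalings of the libraries. *CRYBA2* itself, at 0, lies next to the microRNA locus *gga-mir-375*, which was at 0 as well.

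The deposited span of *CRYAB* on chromosome 24, from 6143945 to 6395549, is shared with 16 other loci. The nearest relative among these is *HSPB2*, the small heat shock gene that stands beside *CRYAB* in many vertebrates, at 54.5 (BS) and 51.1 FPKM (WS). *SDHD*, a subunit of the mitochondrial complex II, was the locus with the highest value in the span, at 174 (BS) and 128 FPKM (WS). None of these loci was 2-fold apart.

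The small heat shock genes *HSPB1*, *HSPB2*, *HSPB7* and *HSPB8* were all above *CRYAB* in both libraries. *HSPB1*, the small heat shock protein of keratinocytes and muscle, was at 2413 (BS) and 5197 FPKM (WS), a log2 fold change of -1.11 that fell short of 2-fold (-0.97) with the totals apart from the 50 most abundant loci set equal. *HSPB8*, a partner in the clearance of misfolded proteins, was at 187 (BS) and 169 FPKM (WS). *HSPB7*, a form of heart and skeletal muscle, was at 143 (BS) and 144 FPKM (WS). *ODF1*, a sperm tail member of the family, was at 0.981 (BS) and 2.49 FPKM (WS), with a log2 fold change of -0.82, and -1.26 at a pseudocount of 0.1. *HSPB3* lies on chromosome Z, where all loci are listed at 0. Of 5 such genes that passed the limit of 1 FPKM, *HSPB1* was the 1 gene below WS by 2-fold or more. No gene exceeded WS by as much. The shares over all loci that passed were 5.69% lower and 4.61% higher by at least 2-fold.

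Crystallins that are enzymes or distant relatives were within 2-fold. The lyase genes behind delta crystallin were *ASL1*, the main lens form, with 1.10 (BS) and 1.19 FPKM (WS), and *ASL2*, the active enzyme, with 21.9 (BS) and 20.9 FPKM (WS). *CRYGN*, a gamma crystallin relative, was at 3.29 (BS) and 5.55 FPKM (WS), with a log2 fold change of -0.61. *CRYM*, a binding protein of thyroid hormone, was at 13.7 (BS) and 12.6 FPKM (WS). The metabolic enzymes *LDHB* and *ENO1*, which also serve as lens crystallins in some birds, showed BS levels of 343 and 645 FPKM, against WS levels of 276 and 735 FPKM. Of 8 such genes that passed the limit, none was 2-fold apart in either direction. Among all loci that passed, 4.61% were at least 2-fold higher and 5.69% at least 2-fold lower in BS.

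Genes that mark lens fibers were low in both libraries. Of 8 defining markers, 5 had a row, and their FPKM summed to 2.06 in BS and 1.56 in WS, most of it from *ASL1*. *GJA3*, a gap junction protein of lens fibers, was at 0.339 (BS) and 0.0939 FPKM (WS). *BFSP1*, the beaded filament protein, was at 0.180 (BS) and 0.258 FPKM (WS). *GRIFIN*, a galectin-like lens protein, was listed at 0 in both libraries. Of 7 genes of lens fiber structure with a row, 3 passed and none differed 2-fold. Over all loci that passed, 4.61% were at least 2-fold higher and 5.69% at least 2-fold lower in BS. *SPARC*, a matrix protein gene also active in dermis, came near at 6636 (BS) and 12930 FPKM (WS), a log2 fold change of -0.96. *TMOD1* of this list lies on chromosome Z, where all loci are listed at 0. Thus, *CRYBB3* at 118 FPKM in BS had no lens fiber marker of comparable level beside it.

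Regulators of crystallin genes were mixed. *PAX6*, the master factor of eye development, was at 0.184 (BS) and 0.0470 FPKM (WS), and *FOXE3*, a factor of the lens epithelium, was listed at 0 in BS and at 0.191 FPKM in WS. *SOX2*, a partner of Pax6 on crystallin enhancers, was at 3.76 (BS) and 0.632 FPKM (WS), with a log2 fold change of 1.55, and 0.64 at a pseudocount of 5. *PITX3*, a lens and muscle factor, was at 30.03 (BS) and 18.1 FPKM (WS). *MAFK* was lower in BS, at 54.05 (BS) and 103.7 FPKM (WS), with a log2 fold change of -0.93. *MAFG* was at 8.68 (BS) and 12.6 FPKM (WS), with a log2 fold change of -0.49. A gene of this list that passed the limit but is not named here was higher in BS. Its difference was larger than that of *MAFG* and short of 2-fold. *HSF1* of this list lies on a sequence where all loci are listed at 0. Of 7 lens transcription factor genes that passed the limit, 4 were higher in BS by any margin, and *SOX2* was the 1 gene that differed 2-fold. Among all loci that passed, 4.61% were at least 2-fold higher and 5.69% at least 2-fold lower in BS. The share of all loci higher in BS by any margin was not counted, so the count of 4 has no background. Of 13 markers of retina and pigment epithelium with a row, 1 passed, *BEST1*, at 1.53 (BS) and 1.38 FPKM (WS). Another 6 were listed at 0 in both, and 1 of these, *PDE6B*, lies on chromosome Z, where all loci are listed at 0.

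Markers of other cell types that skin can hold differed in direction from list to list. As background, 4.61% of the 15020 loci that passed the limit stood 2-fold or more above WS, and 5.69% lay that far below it. The median log2 fold change of these loci was -0.06. Their share above WS by any margin was not counted, so counts by any margin have no background here. Of 13 melanocyte markers, 9 passed the limit and 6 of these stood 2-fold or more above WS, and their FPKM summed to 180 in BS and 73.5 in WS. The remaining 4 (*MLANA*, *PMEL*, *SLC45A2* and *TYRP1*) lie on sequences where all loci are at 0. Of 16 skeletal muscle markers that passed, 2 stood 2-fold or more above WS and 14 were higher by any margin. The number at least 2-fold higher was 4 or 5 under other scalings, and 1 at a pseudocount of 5 or with a limit of 5 FPKM. The sum was 29120 (BS) and 16930 FPKM (WS). Of 18 muscle markers with a row, *TNNC2* was at 0, on such a sequence. Of 8 markers of Schwann cells and glia, all 8 were higher in BS by some margin, 3 of them at least 2-fold, with sums of 482 (BS) and 296 FPKM (WS). Of 13 keratinocyte markers that passed, 6 were at least 2-fold lower in BS (1 with the totals apart from the 50 most abundant loci set equal), with sums of 2214 (BS) and 3926 FPKM (WS). Of 6 smooth muscle markers, 2 were 2-fold or more above WS and 5 were higher by any margin, with sums of 3556 (BS) and 3005 FPKM (WS). Most of both sums came from *DES*, the exception, at 2208 (BS) and 2372 FPKM (WS). The lists share genes, since *SOX10* counts among both the melanocyte and the glia markers 2-fold or more above WS (log2 fold change 1.29), and *DES* is in both muscle lists. The part of these cell types in the difference of *CRYBB3* or *CRYAB* was not tested.

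**Figure D4:**
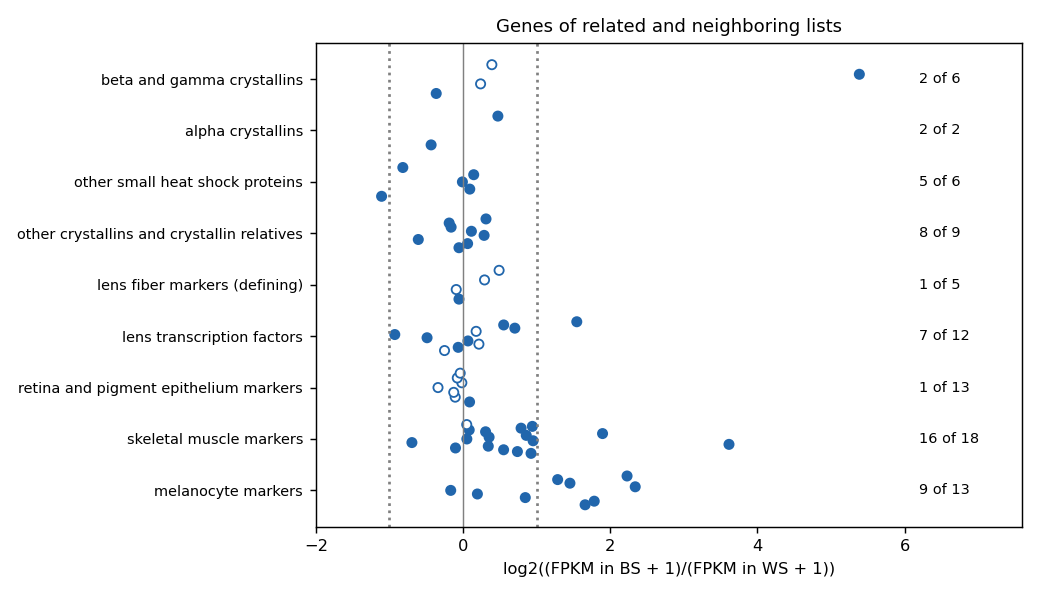
Log2 fold change (BS over WS) of single genes in 9 of the 14 lists, filled where the gene reached 1 FPKM in either library and open where it did not, with dotted lines at a 2-fold difference and, at the right, the number of genes that passed out of those with a row. Genes at 0 in both libraries are not drawn. *CRYBB3* is the point at 5.38, and the other crystallin genes and lens fiber markers lie within 2-fold on this scale.

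The named genes with the profile nearest to *CRYBB3* were *CATHL2*, *MYH1* and *SNORD94*. Nearness was the Euclidean distance in log2(FPKM + 1) over the 2 libraries, so that each gene has 1 point per color. *CATHL2*, a cathelicidin, was at 52.9 (BS) and 1.84 FPKM (WS), at a distance of 1.14. *MYH1*, a fast muscle myosin, was at 63.5 (BS) and 4.27 FPKM (WS), at a distance of 1.25. *SNORD94*, a small nucleolar RNA whose locus overlaps another, was at 138 FPKM (BS) and 0 as listed (WS), at a distance of 1.53.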

How the data were processed

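Per the labels and methods, the authors pooled mRNA of 3 birds per skin color, sequenced 1 library each and computed FPKM, which they deposited for every locus in both libraries. The processing notes name Cuffdiff and galGal4, with no version, and the methods name Bowtie and another reference file. The deposited fold changes, test statistics, p values, q values and marks of significance are the authors' own comparison and were not used. A second deposited table repeats part of the same FPKM with those columns and was not used.

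Of 22853 loci, 5 whose estimate failed were left out, and 18608 were above 0 in a library. On 24 chromosomes and contigs every one of 2269 loci is listed at 0. Values under 0.2 FPKM showed no common step from which reads could be recovered (at most 4.7% of 362 loci shared a ratio between the libraries). Log2 fold changes used a pseudocount of 1 FPKM. Counts were limited to loci that reached 1 FPKM in either library. The FPKM of all loci summed to 2237000 in BS and 3584400 in WS. Loci whose deposited span came within 50 kb of a member were taken as neighbors.

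Named genes were the members, their neighbors that passed the limit, genes of 14 lists with the largest differences or a defining role, and the 3 nearest profiles, with the rest given as counts. *ASL1*, *ASL2* and other members of the lists within 2-fold, as well as *KRT14*, *PAX6* and *FOXE3*, were named after their values were seen. The members and lists were chosen with earlier results of these data known. Alternatives were pseudocounts of 0.1 and 5, no filter or 5 FPKM, 3 scalings (equal medians of the ratio, equal upper quartiles, or equal totals without the 50 most abundant loci) and sums over loci of one symbol. The scalings put 0.08, 0.07 and 0.14 on BS on the log2 scale. The calculation was tested on simulated data built from loci with at least 5 FPKM in WS. That test does not cover low values, such as those of every member except *CRYAB* in WS. No sequence is shown, and some genes of the lists are not reported here. Python 3.11.15, pandas 2.3.3, numpy 2.4.6 and matplotlib 3.10.9 were used.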

Additional observations from a re-analysis of the deposited data

How the results depend on the processing

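Under all alternatives run, *CRYBB3* alone of the crystallin genes was at least 2-fold higher in BS and no member was at least 2-fold lower. Equal totals over all loci, which summed to 2237000 FPKM in BS and 3584400 in WS, were not tried. That scaling would raise every BS value, that of *CRYAB* included, by more than the 3 scalings used. The result is therefore limited to the alternatives run. The log2 fold change of *CRYBB3* ranged from 4.17 to 5.92, that of *CRYAB* from 0.43 to 0.60, of *CRYBA1* from -0.54 to -0.15, of *CRYAA* from -0.69 to -0.16 and of *CRYGS* from 0.11 to 0.999. The median over the members that passed was 0.05 as reported, 2.93 with at least 5 FPKM, where *CRYBB3* and *CRYAB* were left, and -0.027 at a pseudocount of 0.1. It was -0.36 without *CRYBB3*, an alternative chosen after seeing the data. Summing loci moved *CRYAA* from place 4 to 3 in BS and from place 4 to 2 in WS. At pseudocounts of 0.1 and 5 the share of all loci at least 2-fold higher in BS was 7.98% and 1.91%, and that of loci at least 2-fold lower was 10.4% and 2.04%. With no filter these shares were 3.03% and 3.74%. Position has no alternative setting, and sequences were not analysed. No paired analysis was possible because each color has 1 library. With no read counts per locus and no replicate, neither counting error nor the spread between birds was estimated for these values.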
